A study of Caenorhabditis elegans with 4 samples.

Results

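The regions described here are the MRG-1 binding peaks on the arms of chromosome V in adult Caenorhabditis elegans. They are the peaks of the series-wide list on V whose midpoint lies below 5.2 Mb or above 15.6 Mb. This rule gave 732 of the 12147 peaks of that list, 382 on the left arm and 350 on the right arm. The samples came from fem-2(b245) hermaphrodites, labelled as young adults with a germline and kept at 20 °C, while the growth notes speak of gravid adults. The allele b245 of fem-2, a sex-determination gene, is temperature-sensitive and is carried by every sample. Chromatin immunoprecipitation and sequencing (ChIP-seq) with an affinity-purified rabbit antibody to MRG-1 was done in 2 samples, called replicates 1 and 2, and 2 input DNA samples carry the same genotype. Each replicate has its own peak list, while no values of the input samples were used. The chromatin came from whole animals, so germline and somatic binding cannot be told apart, and separate cultures for the replicates are not stated in the labels. The lists hold no read counts, the depth behind a peak is unknown, and no test between groups could be made.

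MRG-1 is the worm counterpart of yeast Eaf3 and mammalian MRG15, proteins whose chromodomain binds nucleosomes methylated on lysine 36 of histone H3, a mark laid over the bodies of transcribed genes. It is needed for the development of germ cells. The arms of V are known as the place where worm chemoreceptor genes are most crowded. These genes encode seven-transmembrane receptors, most of them used by sensory neurons, and nuclear hormone receptor genes, which encode ligand-regulated transcription factors, are interspersed with them. Genes used in most cells or in germ cells lie between these families.

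Of the 2391 protein-coding genes on the arms, 579 (24.2%) were chemoreceptor genes of 18 families and 116 (4.85%) were nuclear hormone receptor genes, by their symbols. Another 236 (9.87%) belonged to other large families such as F-box, C-type lectin, cytochrome P450 and collagen genes. The remaining 1460 genes (61.1%) are called genes outside the families. Of these, 495 had a gene name and 965 only a sequence name, so unnamed members of the receptor families may be among the latter. Gene positions came from a table on the later build WBcel235, which on V lies within about 200 bp of WormBase WS220, the build of the peaks. Gene ends are therefore uncertain by that amount, and positions printed here are those of peaks, on WS220.

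MRG-1 peaks on the V arms lay over genes outside the families and rarely over receptor genes. A gene is called supported when its body overlapped, by at least 1 bp, a series-wide peak and a peak of each replicate. Of the 1460 genes outside the families, 192 (13.2%, exact 95% interval 11.5 to 14.99) were supported, against 8 of the 695 receptor genes (1.15%, 0.498 to 2.26). Over all 19971 protein-coding genes of the genome the share was 23.8%, and 32.7% were overlapped by a series-wide peak. The interval covers counting error only, and neighbouring genes are not independent. Taken singly, replicate 1 had a peak over 17.2% of the genes outside the families and 2.16% of the receptor genes, and replicate 2 over 14.5% and 1.29%. The order of the classes was thus the same in each replicate. Supported genes outside the families were longer than the others, with median lengths of 4121 and 1652 bp, and a long gene meets a peak more easily. Among genes of 1 to 3 kb, 60 of 607 outside the families (9.88%) and 6 of 618 receptor genes (0.971%) were supported. Receptor genes of all lengths were also rarely supported elsewhere. Their share was 1.39% in the centre of V, 1.56% in the outer 25% on each side of chromosomes I to IV and 1.65% in the whole genome. Genes outside the families were supported there at 26.8%, 31.5% and 27.2%, each above the 13.2% of the V arms.

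**Figure D1:**
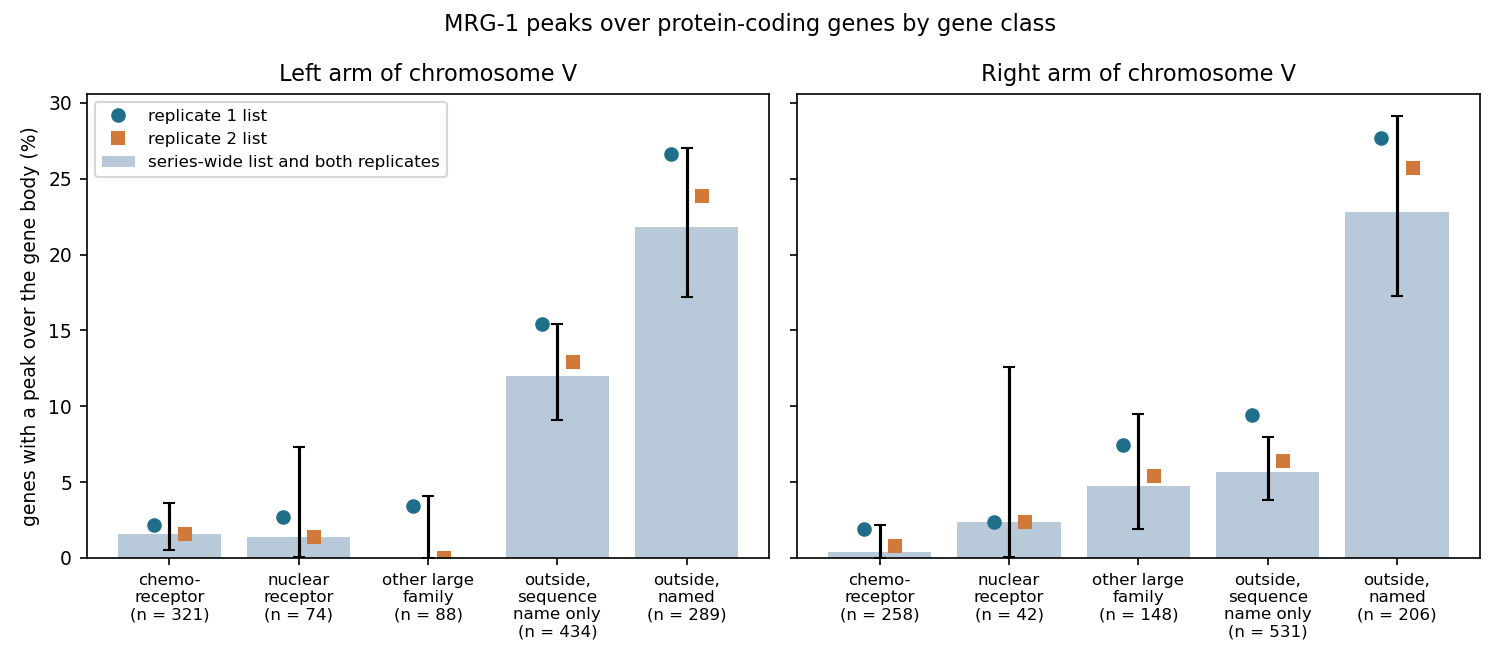
Percent of protein-coding genes on each arm of V with a peak over the gene body, by gene class. Bars give genes in the series-wide list and both replicates with exact 95% intervals for counting error, circles replicate 1 and squares replicate 2. Named genes outside the families stand highest on both arms, at 21.8% on the left and 22.8% on the right.

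Named genes outside the families carried supported peaks at similar shares on both arms. On the left arm 63 of 289 were supported (21.8%, exact 95% interval 17.2 to 27.01) and on the right arm 47 of 206 (22.8%, 17.3 to 29.2). Genes with a sequence name only differed more, with 52 of 434 (11.98%, 9.08 to 15.4) on the left and 30 of 531 (5.65%, 3.84 to 7.97) on the right. The right arm also had the larger share of such genes, 44.8% of its protein-coding genes against 35.99%. In the whole genome 36.7% of named genes outside the families and 18.2% of those with a sequence name only were supported, more than on either arm. On the left and the right arm the shares over all genes outside the families were 15.9% and 10.4%. This difference between arms was not tested, since genes are not replicates.

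The 12 leading named genes of the left arm were those with the highest-scoring series-wide peak among the supported ones. In the order of these scores, which are the authors' own and rank peaks within a list only, they were sti-1, ttb-1, knl-3, cct-7, zig-11, taf-10, mtm-9, phf-10, figl-1, hpo-18, mcm-7 and rab-1. The gene sti-1 encodes a co-chaperone that links Hsp70 and Hsp90, and its body was covered to 100% by peaks of both replicates. It sits between the chemoreceptor genes str-238 and srbc-58, under a peak of 1684 bp at bases 773054 to 774737 with a score of 54.08. Replicate 1 peaks covered 100% of that peak and replicate 2 peaks 82.4%.

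One peak of 10183 bp, at bases 1866187 to 1876369, lay over a group of 5 neighbouring supported genes. Among them were knl-3, a kinetochore protein gene, and cct-7, a subunit of the cytosolic chaperonin, each covered to 100% in both replicates. The gene zig-11, which encodes a protein with immunoglobulin domains, had 45.2% of its body under replicate 1 peaks and 49.4% under replicate 2 peaks. The peak itself was covered to 98.6% in replicate 2.

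A similar group lay at bases 4343546 to 4349729. There mcm-7, a subunit of the replicative helicase, was covered to 100% in both replicates, and figl-1, an AAA ATPase gene related to fidgetin, to 100% and 93.5%. The gene taf-10, a TFIID subunit, and rab-1, a GTPase of traffic from the endoplasmic reticulum to the Golgi, were also covered to 100% in both. In contrast the long genes ttb-1, which encodes the general transcription factor TFIIB, and mtm-9, a myotubularin family gene, were covered in part. Replicate 1 peaks lay over 16.3% of ttb-1 and replicate 2 peaks over 10.8%, and for mtm-9 these shares were 49.7% and 13.1%.

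The widest peak of the arms, 10480 bp at bases 3578913 to 3589392, lay over pygl-1, which encodes glycogen phosphorylase, and rpl-11.1, a ribosomal protein gene, with 4 tRNA genes in the same peak. Both were covered to 100% in each replicate. The peak also met T22F3.2 and T22F3.12, and for the latter the shares of the body were 26.2% and 6.30%. The group bordered the chemoreceptor genes srh-213 and srh-212. The next widest on the left arm after that over knl-3, at bases 4822575 to 4831046, lay over adss-1 and over hsp-6, the mitochondrial Hsp70, which was covered to 100% in both replicates.

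On the right arm the 12 leading named genes among the supported ones, in the order of peak score, were mrps-28, fce-2, calf-1, rpl-8, dhcr-7, immt-2, pus-1, ctps-1, pro-3, bed-1, pph-5 and tgt-2. The gene mrps-28, a small-subunit protein of the mitochondrial ribosome, was covered to 100% in both replicates under a peak at bases 19643033 to 19645871 with a score of 60.54. The ribosomal protein gene rpl-8 and calf-1, known for placing a calcium channel at synapses, were also covered to 100% in both, under 1 peak of 6119 bp at bases 20475445 to 20481563. That peak ends next to the chemoreceptor genes srbc-78 and srbc-79. The highest-scoring peak of the right arm, 63.21 at bases 20493381 to 20495331, lay just beyond them over B0250.5, a gene with a sequence name only, and was wholly under peaks of both replicates. Other leading peaks over genes without names scored 58.49 at C06H5.8 and E01B7.2 and 56.38 at F53F8.5 and F53F8.6, and on the left arm 56.38 at Y61A9LA.10 and F54D11.4. All 3 of these overlapped both replicate lists.

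The widest peak of the right arm, 9305 bp at bases 16791116 to 16800420, lay over immt-2, a mitofilin gene, pus-1, a pseudouridine synthase gene, and ctps-1, a CTP synthase gene. Coverage of ctps-1 was 99.2% in replicate 1 and 65.7% in replicate 2, while pus-1 was covered to 100% in both. The gene tgt-2, a subunit of the enzyme that places queuosine in tRNA, was likewise covered to 100% in both. Long genes of the right arm were covered less in replicate 2: fce-2, a CAAX protease gene, stood at 86.8% and 18.8%, and pph-5, a protein phosphatase gene, at 57.9% and 18.4%. Over all 110 supported named genes, the median share of the body under peaks was 91.0% in replicate 1 and 57.0% in replicate 2, and replicate 1 covered at least as much as replicate 2 in 58 of 63 on the left and 46 of 47 on the right. By arm the medians were 100% and 88.5% on the left and 71.1% and 22.9% on the right, where the supported genes were longer.

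**Figure D2:**
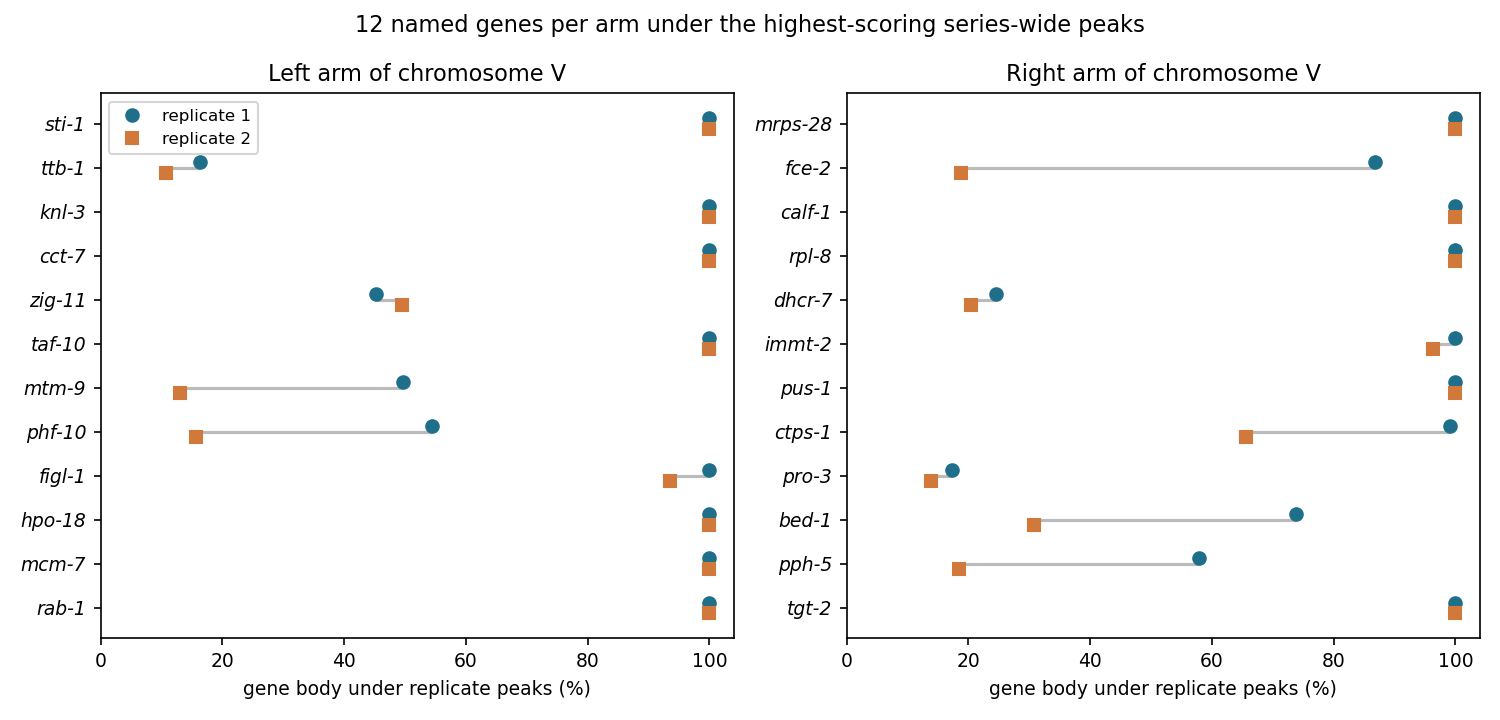
Percent of the gene body under peaks of replicate 1 (circles) and replicate 2 (squares) for the 12 supported named genes per arm whose series-wide peak scored highest. Short genes such as sti-1, mcm-7, mrps-28 and rpl-8 reach 100% in both replicates, while fce-2 drops from 86.8% to 18.8%.

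The few members on the arms of the lists for meiosis and for germline RNA regulation all carried supported peaks. These lists were set by symbol and leave out other such genes of the arms. One left out is the meiotic gene zhp-4 on the right arm, beside pro-3, which was not supported. The share over all protein-coding genes of the arms was 8.66%. In the whole genome these lists were supported at 84.4% and 70.6%. All 3 genes of the list for DNA repair and meiosis were supported. These were coh-4 on the left arm, a kleisin of meiotic cohesin, and syp-1 and chk-2 on the right arm, a synaptonemal complex protein and a kinase of meiotic prophase. Coverage was 99.7% in replicate 1 and 92.9% in replicate 2 for coh-4, 100% in both for syp-1, and 77.2% and 52.6% for chk-2. All 3 genes of the list for germline RNA regulation were supported as well. The gene pgl-3, which encodes a P granule protein, was covered to 100% in both replicates, together with its neighbour hil-4, a linker histone gene. The right arm holds fog-2, needed for hermaphrodite spermatogenesis, and its paralogue ftr-1, covered to 100% and 99.4% and to 100% in both. These paralogues lie side by side under the same peak, with the F-box gene fbxa-114, and are alike in sequence, so reads may have been split between them. Of the small RNA genes, ergo-1, an Argonaute, had 95.03% of its body under replicate 1 peaks and 9.31% under replicate 2 peaks, while wago-10 had no series-wide peak.

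Lists of gene expression differed in their counts. All 5 genes of the list for the transcription machinery were supported, ttb-1, taf-10 and rpac-40 on the left and gtf-2F2 and mdt-17 on the right. The highest-scoring series-wide peaks over rpac-40 and gtf-2F2 overlapped no replicate 2 peak. Replicate 2 peaks lay over 6.96% of the body of mdt-17 and over 100% of taf-10. For rpac-40, a subunit shared by RNA polymerases I and III, the overlap with the series-wide list was lost when peaks were shortened by 200 bp at each end. Of the genes for cytoplasmic ribosomal proteins 2 of 3 were supported, of those for mitochondrial ribosomal proteins 2 of 4 and of the aminoacyl-tRNA synthetase genes 0 of 2. Both genes of the splicing list (sftb-2 and prp-6), the listed translation factor gene ife-3 and 4 of 5 listed ubiquitin genes (cul-3, cand-1, csn-1 and usp-50) were supported. So were 3 of 4 chromatin regulators, namely lin-40 of the NuRD complex and hil-4 on the left and swsn-1 of the SWI/SNF complex on the right. Among these splicing, translation, ubiquitin and chromatin genes, the highest-scoring series-wide peaks over cand-1 and swsn-1 overlapped no replicate 2 peak. The share of the body under replicate 2 peaks ranged from 1.70% for prp-6 to 100% for ife-3 and hil-4. The dosage compensation gene dpy-21 was supported, with 32.3% of its body under peaks in replicate 1 and 25.5% in replicate 2, but its highest-scoring series-wide peak (6.38) overlapped neither replicate list. Of the chaperone genes sti-1, cct-7, hsp-6 and dnj-25 were supported, while the heat-inducible hsp-16.2 and hsp-16.41 had no series-wide peak.

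Few peaks were found over the listed genes of differentiated tissues, and the lists are short. These lists were set by symbol and do not hold every such gene. One left out is calf-1, named above for its role at synapses, which was supported. None of the 15 neuropeptide and insulin-like genes, the 9 genes of neuron function, the 8 intestine and lipid genes, the 6 cuticle genes or the only sperm gene, spe-19, was overlapped by a series-wide peak. They included the peptide genes nlp-27 to nlp-31, the insulin gene daf-28, the gut transcription factor gene elt-7 and the GABA transport gene unc-46. In the replicate lists alone, 1 gene of neuron function was overlapped in each. Of 3 muscle genes, the troponin genes tnt-4 and tni-3 had no series-wide peak and unc-60 was supported. The latter encodes actin depolymerising factors of muscle and of non-muscle cells, and 75.5% of its body was covered in replicate 1 and 42.0% in replicate 2.

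Counted together, 1 of 42 genes of the 6 tissue and sperm lists was supported on the arms (2.38%, exact 95% interval 0.0603 to 12.6), and 37 of 50 genes of the other 19 lists (74.0%, 59.7 to 85.4). The share over all 2391 protein-coding genes of the arms was 8.66%, which lies inside the interval of the tissue lists. By arm, the other lists gave 20 of 26 on the left and 17 of 24 on the right. In the whole genome these shares were 8.70% of 747 and 72.0% of 1246 genes, and in the centre of V 14.9% of 101 and 89.1% of 110. These are descriptions of the lists, and the differences were not tested. Lists and members were chosen with earlier results of these data known, and the intervals do not cover that choice. The tissue genes on the arms were also shorter, with a median length of 1883 bp against 3827 bp.

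**Figure D3:**
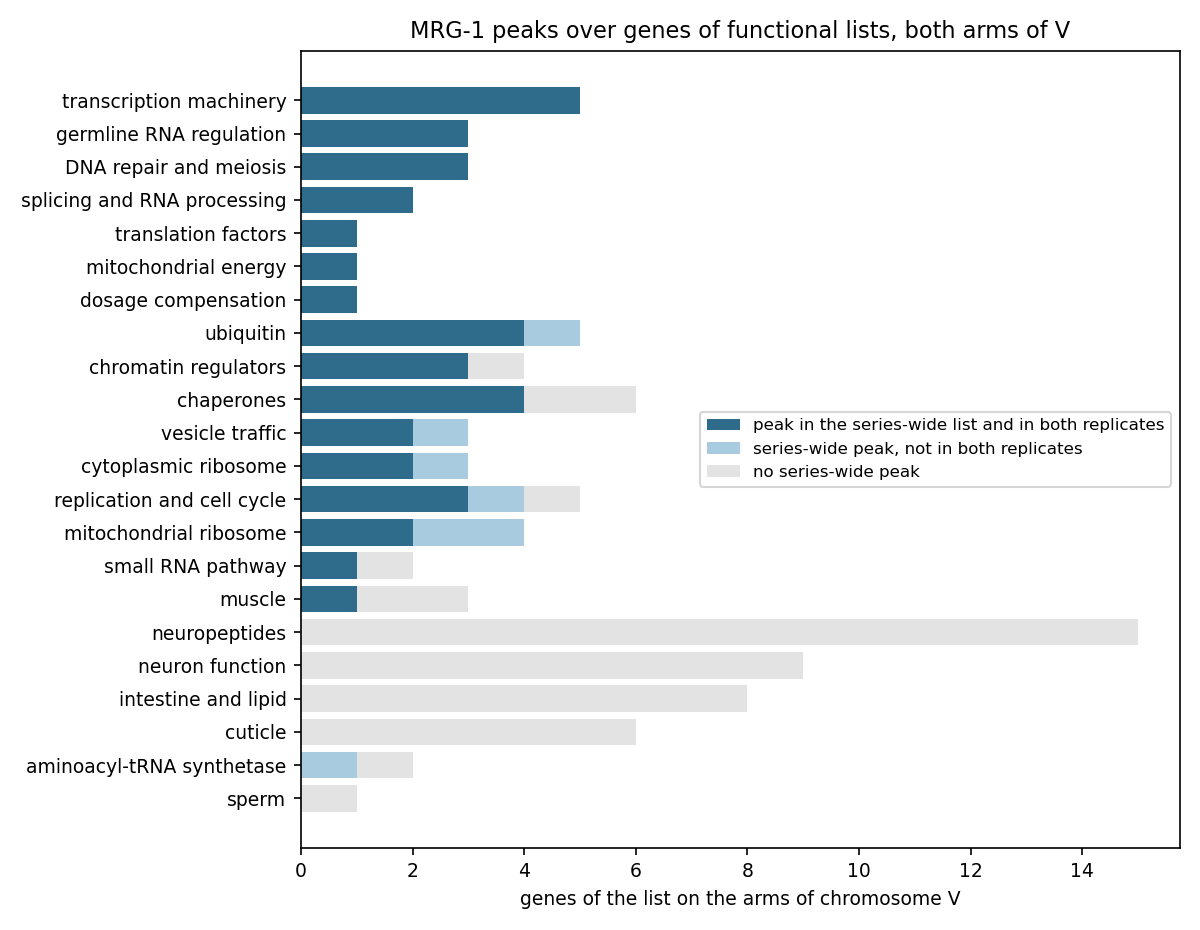
Number of genes of each functional list on the arms of V, divided into genes with a peak in the series-wide list and both replicates (dark), with a series-wide peak only or with 1 replicate (light) and with no series-wide peak (grey). All 5 transcription machinery genes are supported, and none of the 15 neuropeptide genes has a peak.

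The 13 genes of these 19 lists that were not supported fell into separate cases. Some were called in 1 replicate only. The ribosomal protein gene rps-27 lay wholly under a replicate 2 peak and had 0% under replicate 1 peaks, and mrps-12, of the mitochondrial ribosome, likewise. Both lie near an end of the chromosome, in runs of series-wide peaks with gaps of at most 1 kb. On the left tip the run at bases 102558 to 131230 held 18 peaks over rps-27, picd-1, cgp-1 and sftb-2 among others, and on the right tip the run at bases 20831917 to 20852257 held 11 peaks over num-1, mrps-12, exos-7 and fkb-6 among others. Replicate 1 overlapped 4 of the 18 and 0 of the 11, and replicate 2 overlapped 14 and 8. The opposite case was mrps-35, covered to 70.4% in replicate 1 and to 0% in replicate 2. It lies with sws-1 under the third highest-scoring peak of the right arm, at bases 18980305 to 18982793 with a score of 59.16. The genes sld-5, snx-6, ubc-19 and fars-2, which encodes a phenylalanyl-tRNA synthetase, had a series-wide peak and a replicate 1 peak but none in replicate 2. The genes cdc-25.2, wago-10, hil-6, wars-1 and both hsp-16 genes had no series-wide peak.

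Support was weakest where peaks were low and narrow. Over both arms 260 of the 732 series-wide peaks (35.5%, exact 95% interval 32.0 to 39.1) overlapped a peak of each replicate, against 44.5% of all series-wide peaks. The share was 38.6% (37.2 to 39.9) in the outer 25% on each side of chromosomes I to IV and 59.9% in the centre of V. Of the peaks on the V arms, another 283 overlapped replicate 1 alone, 32 replicate 2 alone and 157 neither. Peaks with both replicates had a median width of 971.5 bp and a median score of 11.8, and the rest 297 bp and 4.46. The lowest score was 1.3 in the series-wide list, 50.04 in replicate 1 and 50.03 in replicate 2, and these scores are not on a common scale. Whether low peaks fell below a cut-off of the replicate lists was not tested. Of the 171 arm peaks in the top 25% of the series-wide list by score, 133 (77.8%) had both replicates, and of the other 38, 23 were in replicate 1 only, 10 in replicate 2 only and 5 in neither. Support in both replicates was 39.5% (34.6 to 44.6) on the left arm and 31.1% (26.3 to 36.3) on the right arm. That order rests on replicate 2, which overlapped 44.5% and 34.9% of the peaks. Replicate 1 overlapped 73.6% on the left and 74.9% on the right.

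Coverage was somewhat higher on the left arm than on the right in each replicate, and the spread between replicates was larger than the gap between arms. Replicate 1 peaks covered 8.68% of the left arm and 7.32% of the right arm, and replicate 2 peaks 5.72% and 3.91%. The means were 7.20% ± 2.09 and 5.61% ± 2.41 (SD, n = 2), and the ratio of left to right was 1.32 ± 0.195 (SD, n = 2). In the centre of V, replicate 1 peaks took up 15.96% of the bases and replicate 2 peaks 12.05%, and in the outer 25% on each side of chromosomes I to IV 19.06% and 12.2%. Median widths were 3086 bp in replicate 1 and 1765 bp in replicate 2 for the V arms, and 5366 and 2489 bp for the centre of V. At the limits of the rule, the nearest peak inside on the left, at bases 5131244 to 5131511, had a score of 4.13, and the next outside, at 5204079 to 5205599, one of 37.47. On the right the scores were 3.37 inside, at 15656449 to 15656625, and 2.81 outside, at 15588298 to 15588513.

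Along the arms coverage rose and fell in blocks. In 500 kb blocks of the left arm it was highest between 4.5 and 5 Mb, at 15.3% in replicate 1 and 11.4% in replicate 2, where taf-10, pgl-3, hil-4 and hsp-6 lie. It was lowest between 3 and 3.5 Mb, at 0.952% and 0%, where 46 of 135 protein-coding genes are chemoreceptor genes and no gene was supported. On the right arm it was highest 2.5 to 3 Mb from the outer end, at 19.1% and 8.30%, over csn-1, usp-50, dpy-21, prp-6 and slr-2, in a block with 2 chemoreceptor genes. It was lowest 2 to 2.5 Mb from that end, at 1.38% and 0.203%, where ints-5 was the only supported gene. That block had 11 chemoreceptor and 7 nuclear hormone receptor genes among 100 protein-coding genes, so a sparse block was not always one of many receptor genes. The left block with most chemoreceptor genes, 74 of 129 at 2.5 to 3 Mb, had coverage of 6.86% and 3.19% and 12 supported genes. Its counterpart on the right, 54 of 170 at 4.5 to 5 Mb from the outer end, had 1.99% and 1.87% and 4 supported genes.

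**Figure D4:**
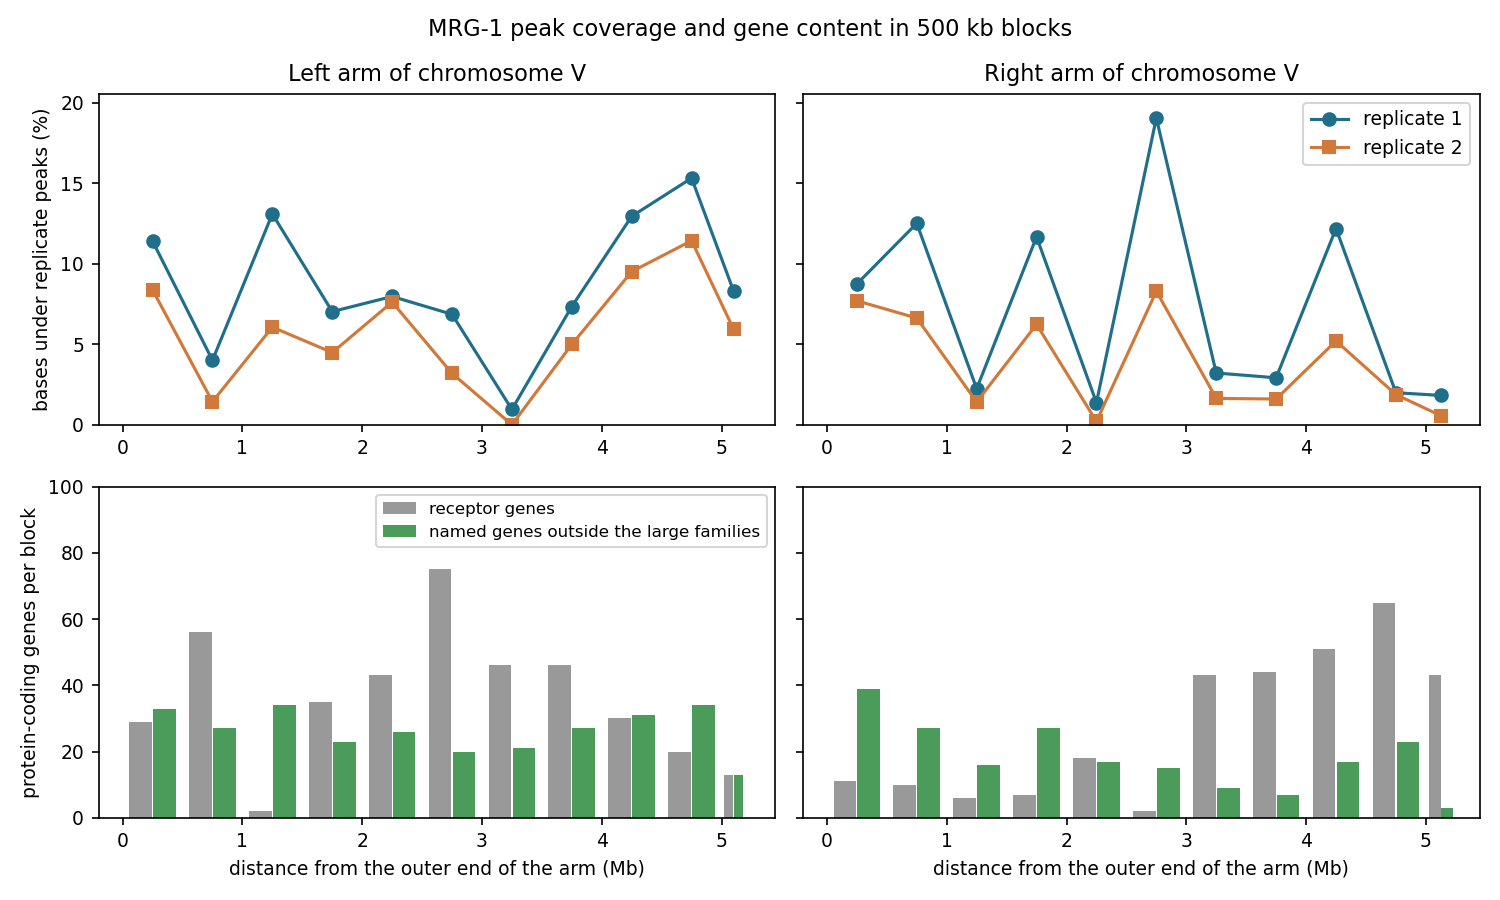
Percent of bases under replicate peaks (top) and numbers of receptor genes and of named genes outside the families (bottom) in 500 kb blocks, by distance from the outer end of each arm in Mb. The right arm is counted from the last peak end on V, and the innermost block of each arm is shorter. Replicate 1 reaches 19.1% in the right arm block at 2.5 to 3 Mb and the left arm block at 3 to 3.5 Mb falls to 0% in replicate 2.

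Supported genes came in small groups of neighbours. The 207 supported protein-coding genes of the arms formed 87 unbroken groups along the gene order. Of these, 38 held 3 or more genes, 19 held a pair and 30 a single gene. The left arm had 26 groups of 3 or more and the right arm 12. Of the 192 supported genes outside the families, 165 (85.9%) had a supported gene as direct neighbour, against 137 of the 1268 that were not supported (10.8%). A single peak can cover several neighbours, so these counts are not independent. A receptor gene within 2 genes on either side was found for 42 (21.9%) of the supported and 613 (48.3%) of the unsupported ones. The longest group, on the right arm, was reps-1, Y39B6A.37, gtf-2F2, tgt-2, Y39B6A.34 and nol-53. On the left arm coh-4 and pid-5, known for a part in the piRNA pathway, lay in a group of 5.

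Long stretches without a peak in either replicate held most receptor genes and also the larger part of all protein-coding genes. The arms had 33 such stretches of at least 100 kb, 16 on the left (2.60 Mb, 49.98% of the arm) and 17 on the right (3.22 Mb, 61.3%). These stretches were not free of series-wide peaks and held 41 of them, 22 on the left and 19 on the right. The stretches held 417 of the chemoreceptor genes (72.0%) and 94 of the nuclear hormone receptor genes (81.03%). Beside these they held 58.5% of all protein-coding genes of the arms, 54.1% of the genes with a sequence name only and 201 of the named genes outside the families (40.6%). On the right arm the nuclear hormone receptor genes, at 69.0%, stood near all protein-coding genes, at 64.7%, and near the genes with a sequence name only, at 64.2%. The longest on the left, 302 kb at bases 3760953 to 4063179, begins beside chk-1, a DNA damage checkpoint kinase gene covered to 100% in both replicates. It held 21 chemoreceptor genes, 10 nuclear hormone receptor genes and the cluster of nlp-27 to nlp-31. Another, at bases 2981505 to 3277192, held 36 chemoreceptor genes and also lag-2 and apx-1, ligands of the Notch receptors, which were picked out after their values were seen. On the right the longest, 395 kb, ran up to the peak over ints-5, a subunit of the Integrator complex, and held 87 protein-coding genes. Only 9 of these were chemoreceptor genes, and 62 had a sequence name only. This stretch and that with lag-2 and apx-1 held 2 series-wide peaks each.

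Few receptor genes carried supported peaks. On the left arm these were srd-73, srd-72, srd-71, srd-60, nhr-86 and srbc-58, and on the right nhr-243 and sre-36. The series-wide peaks covered at most 17.8% of the body of each srd gene and 8.46% of sre-36, and these peaks also lay over a gene outside the families. The peak at srbc-58, next to that of sti-1, covered 24.1% of its body. The nuclear hormone receptor gene nhr-86 was covered most in replicate 1, with 94.9% of its body under replicate 1 peaks and 34.3% under replicate 2 peaks, and it shares a series-wide peak with lbp-9. For nhr-243 the figures were 39.8% and 42.1%. When peaks were shortened by 200 bp at each end, 5 of the 8 kept the overlap, and srd-60, srd-73 and sre-36 did not.

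The highest-scoring peaks of the left arm lay beside these 4 srd genes, at a pair of sites with matching neighbours. The peak at bases 2529819 to 2532078 had a score of 62.5 and a width of 2260 bp, and that at 2421534 to 2423806 a score of 61.86 and a width of 2273 bp. Each was covered to 100% in both replicates. The first spanned Y45G12C.16 and reached 44 bases into srd-73 and 513 into srd-72. The other spanned C13B7.6 and reached 50 bases into srd-60 and 520 into srd-71. The 3 genes at one peak had the same lengths as the 3 at the other, 2503, 1029 and 2920 bp, and each pair lay 108 kb apart. If the sites are copies, reads may be placed at either, so each peak's height is uncertain. Their sequences were not compared.

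Among the other large families only F-box genes of the fbxa family were supported, 7 of the 50 on the right arm and 0 of the 5 on the left. Over all protein-coding genes the shares were 7.26% on the right and 10.03% on the left, and 5 genes are too few to read a share from. The highest score among them was 47.1, at fbxa-106, under a peak shared with slr-2. The 13 supported pseudogenes of the right arm included 4 of the fbxa family and 2 of chemoreceptor families. The many copies of this family may share reads, so these calls are uncertain. Of other gene kinds on the arms, 5 of 32 tRNA genes were supported, 5 of 9 on the left and 0 of 23 on the right. Of these 5, 4 lie under the single peak over pygl-1, so the count by arm rests largely on that peak. No supported gene was found among the 89 tRNA pseudogenes, the 70 piRNA genes, the 15 rRNA genes or the 12 miRNA genes. Of the 732 peaks, 621 (84.8%) overlapped a gene outside the families, 12 (1.64%) a receptor gene and no gene outside the families, and 56 (7.65%) no gene of the table. Genes outside the families made up 61.1% of the protein-coding genes of the arms, and their share of the bases is not given here.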

How the data were processed

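Per the labels' protocols, ground adults were fixed with formaldehyde and sonicated, and ChIP DNA and input were made into Illumina libraries. The submitters' processing notes name BWA and the build ce10. Per the file headers, positions are on WormBase WS220. The source columns name MACS for the replicate lists and MACS v2 for the series-wide list. How input was used, whether reads were pooled, and versions and thresholds were not stated in the sources used. Each deposited peak has a score from the authors, which the files do not define. Scores only ranked or filtered peaks within a list, and widths and scores of the lists are not on a common scale.

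Peaks were taken by midpoint, overlaps needed at least 1 bp, and a gene was supported when the series-wide list and both replicate lists overlapped its body. Gene names and neighbourhood came from a RefSeq table on WBcel235, with no strand, and alternatives shortened peaks or lengthened genes by 200 bp. Families and 25 functional lists were set by symbol. Lists, members and alternatives were chosen with earlier results of these data known. Of the lists, mitochondrial import, nuclear pore and transport, and proteasome genes have no member on the arms. Named genes were the 12 supported named genes per arm with the highest peak score, list members, receptor genes with a supported peak, the leading and widest peaks and the genes beside long stretches. Intervals are exact Clopper-Pearson intervals at 95%. No test was made, because only the ChIP group has values. The interval functions were tested on simulated peaks. Alternatives are in the closing section. The tools were matplotlib 3.10.9, scipy 1.17.1, pandas 2.3.3 and numpy 2.4.6 under Python 3.11.15.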

Additional observations from a re-analysis of the deposited data

How the results depend on the processing

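The lists give no read depth, so how many sites more reads would add is unknown, and low, narrow peaks were the least supported. No paired analysis was possible because only the ChIP samples have peak lists. Of 52 alternative values, 31 stayed within the replicate spread or counting interval, among them all 6 for the coverage ratio of left to right. For this ratio the values with 1 replicate left out could not fall outside that spread. The spread was the SD around the mean of the same replicates, so these values show nothing about stability. For the median width of series-wide peaks, the spread came from the replicate lists, with an SD of 934 bp. Widths of the lists are not on a common scale. This width rose from 373.5 to 891.5 bp with the top 50% of peaks and still counted as within the spread, so that count shows nothing about its stability. A pair of values changed direction, and the cause was not tested. The left-minus-right difference in peaks with support, 8.39 percentage points, ranged from -1.30 to 9.65 when 1 replicate was left out, negative without replicate 2. The left-minus-right difference in supported genes outside the families, 5.46 points, was -1.02 among named genes only, an alternative chosen after seeing the data. It was 4.76 with shortened peaks, 5.88 with lengthened genes, 4.66 with at least 50% of the body under peaks, 5.32 with the top 50% of peaks and 5.55 for the outer 25% of V. It was 4.72 for genes of 1 to 3 kb and 5.60 from the replicate lists alone, both added after seeing the data, and 5.06 to 5.101 with 1 replicate left out. The share of peaks supported was 56.4% in the top 50% by score and 39.9% to 74.2% with 1 replicate left out. The share of genes outside the families was 7.47% with at least 50% of the body covered, 9.88% for genes of 1 to 3 kb, 22.2% for named genes and 13.8% to 15.96% with 1 replicate left out. For receptor genes it was 0.144% with at least 50% of the body covered. The 290 runs of peaks became 150 with gaps of up to 5 kb and 192 with the top 50% of peaks.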

Other observations

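The matching neighbours on the left arm reached beyond the srd genes. Among supported genes of at least 500 bp, 5 pairs on the left arm had exactly the same length, no pair did on the right arm, and all 5 pairs lay 108 kb apart. Besides the 3 pairs at the leading peaks these were Y19D10A.5 with C01B4.8 and Y19D10A.4 with C01B4.7, beside the related genes mct-1 and mct-2. Replicate 1 peaks lay over 38.5% of Y19D10A.4 and 37.7% of C01B4.7, and replicate 2 peaks over 28.6% of each. For mct-1 the shares were 76.5% and 86.4%, and for mct-2 51.9% and 88.5%. The sequence identity of the copies and the placement of reads between them were not tested. This group was looked for after the values were seen.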
